A study of Mus musculus with 9 samples.

Results

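The 9 forebrain arrays of a study of 2 antipsychotic drugs in mice fell into 3 sets of 3 arrays that crossed the treatments. The sets were chosen from the expression values themselves, by how closely whole arrays resembled each other, and together they hold 9 of the 9 arrays. Set A holds clozapine 1, haloperidol 3 and control 1, set B holds clozapine 2, haloperidol 2 and control 2, and set C holds clozapine 3, haloperidol 1 and control 3, where the number is the replicate number of the title. Because the values chose the sets, differences between sets are given as a description, with no test.

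All animals were individually housed male C57BL mice, an inbred laboratory strain, with an age entered as 4 weeks and 2 weeks to settle before treatment; at which stage the age was taken is not stated. The clozapine group received 12 mg/kg/day and the haloperidol group 1.6 mg/kg/day in the drinking water for 4 weeks, and the control group received no drug. Clozapine is an atypical antipsychotic and haloperidol a typical one that blocks dopamine receptors. Of 30 animals, 10 per treatment, 9 selected ones gave RNA, 3 per treatment and 1 per array, without pooling. The brains were divided into cerebellum and hemispheres, and the entries name different sides for the hemisphere used, so the side is not settled. The labels name no batch, date or order of processing that could be set beside the 3 sets.

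A dissected forebrain is a mixture of cortex, hippocampus, striatum, thalamus and other regions, and where the knife falls decides how much olfactory bulb, pituitary, membrane or blood comes along. Each region and cell type has genes that mark it, such as myelin genes for oligodendrocytes and complement genes for microglia. The state of the RNA matters as well: the array's labelling starts at the 3′ end of transcripts, so probes far from that end lose signal when RNA is broken or when labelling is short. Control transcripts added before hybridisation do not come from the tissue. Their deposited values were normalized with the rest of the array, so they need not report on the array step alone.

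Values are deposited log2 values from the GCRMA procedure, in which 1 unit is a factor of 2. Of 12422 probe sets that are not array controls, 7453 had a 9-array average above the filter value of 3.448 and were compared. Medians over these probe sets were 6.28, 6.33 and 6.30 in set A, 6.19, 6.17 and 6.22 in set B, and 6.24, 6.25 and 6.10 in set C, always in the order clozapine, haloperidol, control. In each pair of sets the difference was taken within each treatment. A probe set was counted as different where the clozapine, haloperidol and control differences all had the same sign and the smallest was at least 0.5 log2 units, a fold of 1.41.

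Each drug array was nearest to an array of its own set, whereas control 2 was not and control 3 lay far from all arrays. Arrays of set A were nearest to each other, with Pearson correlations over the 7453 probe sets of 0.994 between clozapine 1 and control 1, 0.993 between clozapine 1 and haloperidol 3, and 0.990 between haloperidol 3 and control 1. Clozapine 2 and haloperidol 2 of set B correlated at 0.993, and clozapine 3 and haloperidol 1 of set C at 0.994. Control 2, placed in set B, was nearest to clozapine 3 and haloperidol 1 of set C, at 0.992 and 0.990, and correlated at 0.988 and 0.982 with its own set. Control 3, placed in set C, was nearest to clozapine 3 and haloperidol 1 of its own set, but only at 0.978 and 0.975, close to its 0.975 with clozapine 2. The set label therefore goes against the data for control 2, and control 3 stands apart, so counts that rest on them are also given for the drug arrays alone.

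**Figure D1:**
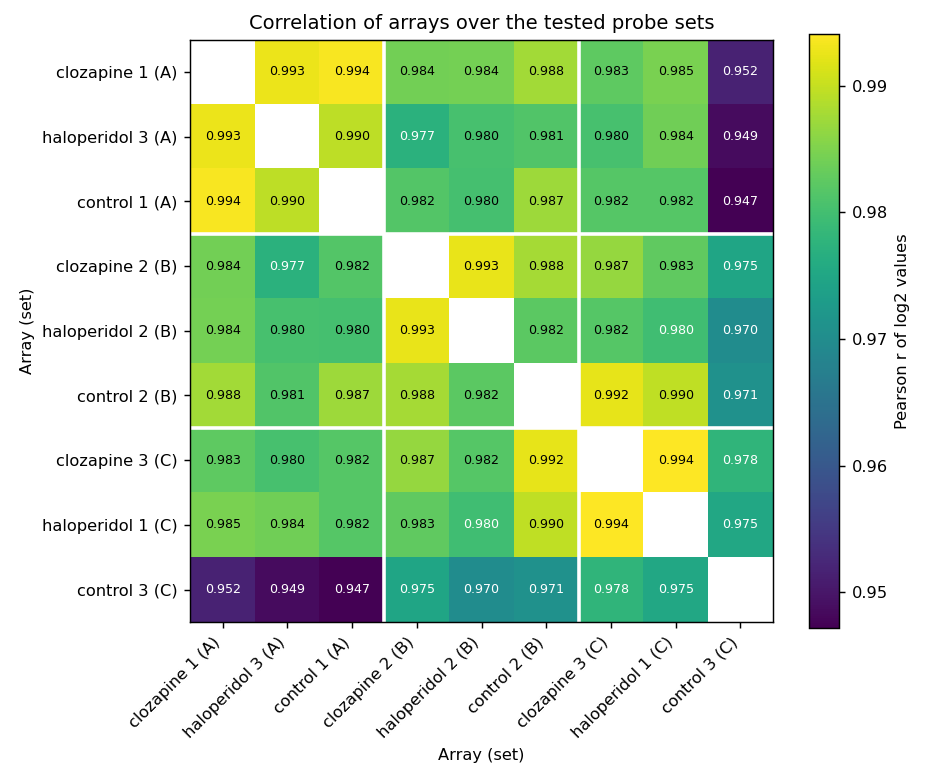
Pearson correlation of log2 values between each pair of the 9 arrays over the 7453 probe sets tested, ordered by set with white lines between sets. The set A block at the upper left is bright, clozapine 2 and haloperidol 2 form a bright pair, control 2 is brighter against the drug arrays of set C than against its own set, and control 3 is dark against the rest, from 0.947 to 0.978.

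Arrays of the same set correlated more closely than arrays of the same treatment. The median correlation was 0.990 over the 9 pairs of arrays within a set and 0.983 over the 9 pairs within a treatment. Without control 2 and control 3 the within-set range of 0.990 to 0.994 lay above the within-treatment range of 0.98 to 0.987. In sums of squares over all probe sets, the array set took 50.9%, treatment took 15.8% and 33.3% was left over. On the 6 drug arrays alone the set took 72.9%, treatment 12.3% and the rest 14.9%. These shares describe a grouping picked from the same values. It was not the grouping with the largest share, since exchanging control 2 and control 3 gave the set 52.6%.

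The difference between 2 sets was much alike in clozapine and haloperidol, and in the controls it depended on the pair. Across probe sets, A minus C in clozapine correlated at 0.65 with A minus C in haloperidol and at 0.63 with A minus C in control. For A minus B the values were 0.68 and 0.44. For B minus C the clozapine and haloperidol differences correlated at 0.68, but the clozapine and control differences at -0.03 and the haloperidol and control differences at -0.04. Placing control 2 in set C and control 3 in set B, an alternative chosen after seeing the data, gave 0.61 for A minus B between clozapine and control, 0.56 for A minus C and 0.03 for B minus C. For B minus C this only reverses the sign of the control difference, so its value carries no new information.

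**Figure D2:**
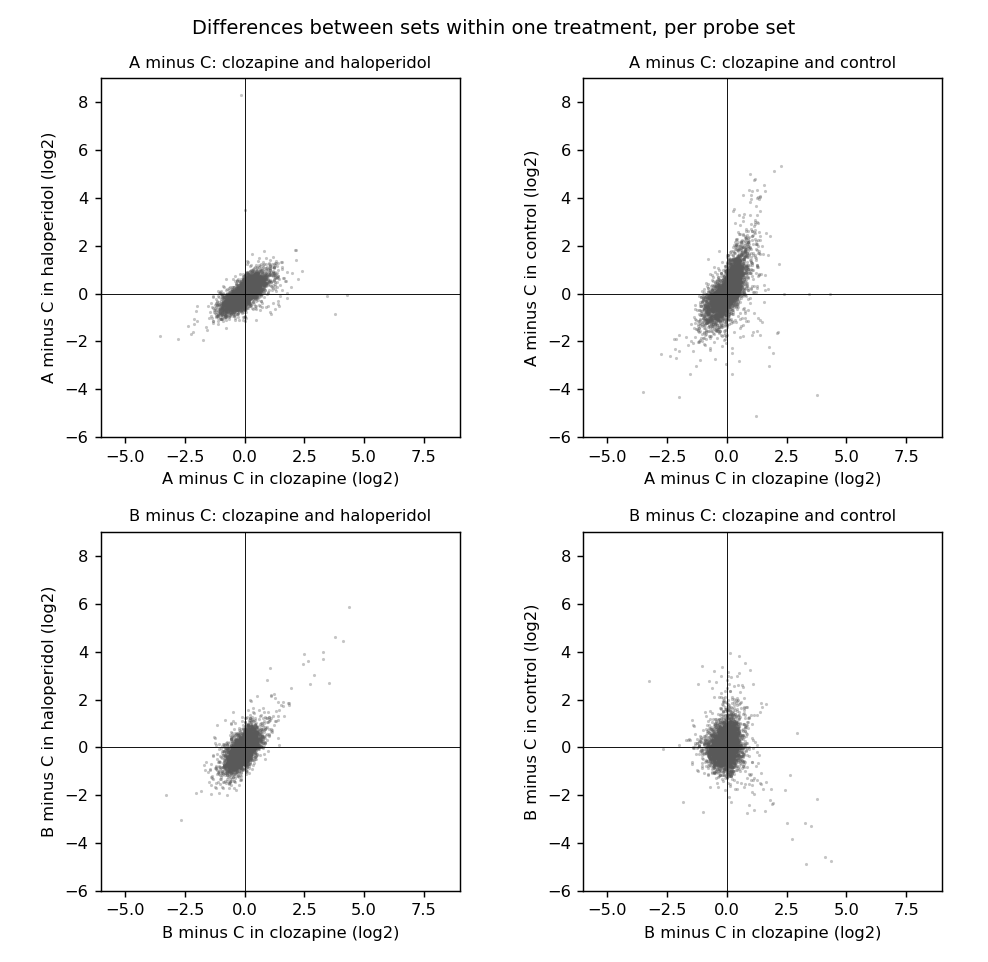
Each point is 1 of 7453 probe sets, with the difference between 2 sets in clozapine on the horizontal axis and in haloperidol or control on the vertical axis, in log2 units. A minus C rises together in both panels (r of 0.65 and 0.63), while B minus C does so for the 2 drugs (0.68) and not for clozapine and control, where r is -0.03 and the probe sets highest in B with clozapine lie at negative values.

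With all 3 treatments required, the pairs of sets that include A had the most probe sets past the step. Against set C, 244 of 7453 probe sets were higher in A in every treatment (3.27%) and 171 were lower (2.29%). Against set B, 149 were higher in A (2%) and 36 lower (0.483%). Between B and C, 30 were higher in B (0.403%) and 44 lower (0.59%). Asking only for the 2 drugs gave 4.8% higher and 1.78% lower for A against B, 3.73% and 3.39% for A against C, and 1.56% and 3.9% for B against C. The 3 pairs then lay closer together, at 491, 531 and 407 probe sets in all, so the lead of set A rested largely on the controls. The split between higher and lower depended on scaling: with each array centred on its median, A against B gave 92 higher and 67 lower and A against C gave 171 and 272. Quantile normalization gave 109 and 61, and 204 and 228. Just inside the step of 0.5 lay Chga at 0.502 in A minus B and Ptbp2 at 0.501 in A minus C, and just outside lay Penk at 0.497 and Gsn at 0.499.

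A stricter count took probe sets that separated 1 set from both others in every treatment. Set A lay above both in 73 cases (0.979%) and below both in 22 (0.295%), and set C above both in 28 (0.376%) and below both in 20 (0.268%). Set B lay above both in 0 cases (0%) and below both in 1 (0.0134%). In the 2 drugs alone the shares were 1.48% above and 0.403% below for A, 1.53% and 0.483% for C, and 0.698% and 1.06% for B. The probe sets that set B apart in the drug arrays were thus almost all lost when the controls had to follow.

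Genes lower in set A than in both other sets included some of the largest steps of the data. Here and below, fewer cells of a type and less RNA per cell cannot be told apart, since the tissue was measured in bulk. Uhmk1, a protein kinase that binds splicing factors, was at 1.82, 1.40 and 2.45 in set A, at 6.27, 5.99 and 4.18 in set B, and at 5.34, 3.17 and 6.58 in set C (clozapine, haloperidol, control). No array of set A reached any array of B or C, and the smallest within-treatment difference was -1.73. A brighter Uhmk1 probe set, at 10.05 to 10.61 over the 9 arrays, showed no such step. Its values in A, 10.05, 10.11 and 10.07, were still the lowest, with haloperidol 2 at 10.20 next. Lamb1, a laminin chain of basement membrane, was at 4.29, 3.80 and 4.55 in A, at 5.90, 5.62 and 6.10 in B, and at 6.02, 5.73 and 6.37 in C. Its second probe set went the other way or nowhere, at 4.92 to 5.32 in A and 4.62 to 4.96 in the other arrays.

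Bright probe sets stepped in the same direction. Gsdme, a pore-forming gasdermin, was at 7.64, 7.79 and 7.91 in A, at 9.4, 9.00 and 10.01 in B, and at 10.03, 9.16 and 10.53 in C. Chst2, a sulfotransferase of cell surface sugars, was at 7.76, 7.74 and 8.34 in A, at 9.75, 8.78 and 9.89 in B, and at 9.93, 9.35 and 10.65 in C. For both genes every array of A lay below every other array, and in the drug arrays B lay below C by less than A lay below B. Second probe sets of Gsdme, at 5.22 to 5.70, and of Chst2, at 7.99 to 8.49, showed no step between A and the other sets.

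Bdnf, a neurotrophin that supports synapses, was at 9.41, 9.52 and 9.70 in A, at 10.75, 10.17 and 10.36 in B, and at 10.68, 10.21 and 11.16 in C. Slc8a1, the sodium and calcium exchanger, was at 4.90, 4.68 and 4.61 in A and at 5.44 to 7.63 elsewhere, while its brighter probe set, at 7.09 to 7.81, did not separate the sets. Gria2, a subunit of AMPA-type glutamate receptors, was at 10.23, 10.43 and 9.87 in A and 10.86 to 11.55 elsewhere. Another Gria2 probe set went the other way against C, at 9.30, 9.43 and 9.24 in A and 8.83, 9.16 and 8.35 in C. H2aj, a histone variant, Aopep, an aminopeptidase, Polr2c, a subunit of RNA polymerase II, and Sema4b, a semaphorin, had smallest differences from B of -1.22, -1.29, -1.01 and -0.86. The Aopep and Uhmk1 steps began below the filter value, and raising low values to it took Aopep to -0.23 against B and Uhmk1 to 0 against C.

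Among the genes with the largest steps up in set A were a glucose transporter and a lysosomal precursor, each in the dimmer of its tested probe sets. Slc2a3, the glucose transporter of neurons, was at 6.06, 5.95 and 6.51 in A, at 3.84, 4.40 and 5.06 in B, and at 5.05, 5.18 and 2.40 in C. Psap, the precursor of lysosomal saposins, was at 6.67, 6.38 and 6.93 in A, at 4.43, 4.74 and 5.52 in B, and at 5.48, 5.51 and 2.12 in C. Set A overlapped with neither other set for either gene, and control 3 was the lowest array by over 1 unit. The brighter probe sets did not show these steps. That of Psap was at 10.47, 10.18 and 10.41 in A and 10.63, 10.53 and 10.43 in B, and that of Slc2a3 lay between 7.43 and 7.95 with all sets overlapping.

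Ssr3, a subunit of the translocon-associated protein complex of the endoplasmic reticulum, was higher in A by at least 1.19 in every comparison. It was at 7.92, 8.05 and 8.10 in A, at 6.16, 5.72 and 6.92 in B, and at 6.38, 6.72 and 3.56 in C. A second Ssr3 probe set followed, at 6.73 to 7.19 in A against 4.99 to 6.11, and the brightest, at 9.20 to 10.23, overlapped. Syngr1, a synaptic vesicle protein, was higher in A than in B by at least 1.29, and Rab5b, of early endosomes, by at least 1.26. Sfpq, a splicing factor, was higher by at least 1.12, Arf3, of Golgi traffic, by 1.10 and Nucks1 by 1.09. Csnk1d, a casein kinase that acts on clock proteins, was higher by at least 1.08 and Cdk5r1, the activator of Cdk5, by 1.02. A second probe set of Arf3 was at 8.01 to 8.60 in A and 4.26 to 7.43 elsewhere, while a further one, at 7.01 to 7.16 in A and 6.85 to 7.4 elsewhere, did not separate A. A bright Nucks1 probe set, at 9.91 to 10.64, did not separate A. Other Sfpq probe sets stepped the opposite way: 1 was at 5.87, 5.84 and 5.89 in A and 5.98 to 7.22 elsewhere, and another was lower in A than in both other sets within each treatment.

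Genes lower in set C than in both other sets included several with roles in neurons, such as Syt1, Map2 and Kif5a. Syt1, the calcium sensor of vesicle fusion, was at 11.07, 11.08 and 10.98 in A, at 11.32, 11.09 and 10.39 in B, and at 9.68, 9.80 and 8.57 in C. Map2, a microtubule protein of dendrites, was at 7.46, 7.47 and 7.63 in A, at 7.23, 7.30 and 7.31 in B, and at 6.14, 6.09 and 4.66 in C. In both genes A and B lay close together and every array of C lay below them, with control 3 lowest. Kif5a, a kinesin motor of axons, was at 8.54, 8.26 and 9.04 in A, at 7.94, 8.21 and 7.96 in B, and at 6.96, 7.14 and 4.74 in C. A dim second probe set of Kif5a, at 4.15 to 4.88, put control 1 on top and control 3 at the bottom.

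Arhgap5 had the largest step down from B to C when genes are ranked by the smallest of the 3 differences, at 6.54, 6.70 and 6.28 in B against 5.16, 5.38 and 4.81 in C, with A at 6.51, 6.54 and 6.53. Norad, a long non-coding RNA, was highest in the drug arrays of B, at 10.94 and 11.36, then 10.20, 10.15 and 10.08 in A, 9.4 in control 2, and 8.03, 8.32 and 8.82 in C. Nsf, which recycles the fusion machinery, Stx1a, a syntaxin of the release site, and Syn2, a synapsin, also lay lower in every array of C than in the same treatment of A and B. Stx1a was at 9.10, 8.96 and 7.95 in C against 9.34 to 9.77 in A and B. Rgs5, a marker of pericytes, was at 5.07, 5.26 and 4.93 in C against 5.77 to 6.23, and Mobp, a myelin protein, at 9.24, 9.20 and 8.19 in C against 9.81 to 10.27. Another Mobp probe set, at 10.68 to 11.07, did not separate the sets, and a further one did, at 9.79, 9.62 and 8.40 in C against 10.01 to 10.73. The brightest Norad probe set, at 12.69 to 13.12, did not separate them either.

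Glul, the glutamine synthetase of astrocytes, had the largest step upward in set C. It was at 7.42, 6.99 and 7.52 in A, at 6.72, 6.42 and 8.01 in B, and at 8.54, 8.25 and 10.31 in C. Every array of C lay above every other array, although control 2 at 8.01 came close to the lowest, and A lay above B in the drugs and below it in the controls. Other genes above both sets in C were Rpgr, a ciliary protein, at 6.68, 6.96 and 7.14 against 4.99 to 6.27, and Shox2, a homeobox factor, at 7.55, 6.86 and 7.83 against 5.54 to 6.84. Kmt2e, a chromatin regulator, was at 10.27, 10.07 and 10.38 in C against 9.16 to 9.71. Cat, the catalase that breaks down peroxide, was at 7.49, 7.43 and 7.46 against 6.68 to 6.89, with little spread on either side. Cct5, a chaperonin subunit, rose in a dim probe set, at 4.48 to 4.86 against 3.67 to 3.87, and not in its bright one, at 9.06 to 9.66.

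Named genes were followed with the 2 controls exchanged. Of the 24 genes named for B against C, 0 kept their step when control 2 was placed in C and control 3 in B. For A against B 24 of 24 kept it, and for A against C 18 of 24. In B against C the exchange only reverses the sign of the control difference, so the 0 of 24 was fixed in advance. The exchange was thus no test of the named steps between B and C.

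A further group of genes joined clozapine 2, haloperidol 2 and control 3 against the other 6 arrays, across the B and C labels. With the 2 controls exchanged, set B lay above both other sets in 38 probe sets (0.51%) and below both in 22 (0.295%), and set C above both in 0 (0%) and below both in 8 (0.107%). B against C then gave 50 higher (0.671%) and 30 lower (0.403%). The arrangement and its genes were picked after the values were seen. Gnb1, a beta subunit of G proteins, was at 10.54 in clozapine 2, 11.31 in haloperidol 2 and 10.73 in control 3, and at 5.45 to 7.4 in the other 6 arrays. Cplx2, a complexin that clamps vesicle fusion, was at 8.60, 9.61 and 8.68 in those 3 arrays and at 4.10 to 6.26 in the rest. Neither gene overlapped, and the gap was 3.13 for Gnb1 and 2.34 for Cplx2.

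The same 3 arrays were high for Otub1, a deubiquitinase, at 7.29, 8.12 and 7.81 against 4.2 to 5, and for Klf13, a zinc finger factor, at 7.99, 8.21 and 8.23 against 5.20 to 6.07. Nr1d1, the clock repressor Rev-erb alpha, below the filter on average, was at 4.56, 5.94 and 5.07 against 1.29 to 1.97. Sod1, the cytosolic superoxide dismutase, was at 10.77, 11.65 and 10.67, at 9.06 to 9.63 in set A, and at 7.48 to 7.95 in clozapine 3, haloperidol 1 and control 2. Ndufb2, a subunit of respiratory complex I, went the other way, at 2.91, 3.98 and 3.34 against 5.99 to 6.90, while its bright probe set was at 9.92 to 10.31 throughout. Psap and Slc2a3, given above for set A, were also lowest in these 3 arrays. A second Gnb1 probe set was highest in the same arrays, at 7.77, 8.86 and 6.91, but clozapine 1 at 6.89 came next. A further Gnb1 probe set, at 5.35 to 6.33, and a second Klf13 probe set, at 6.14 to 7.38, did not show the pattern.

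**Figure D3:**
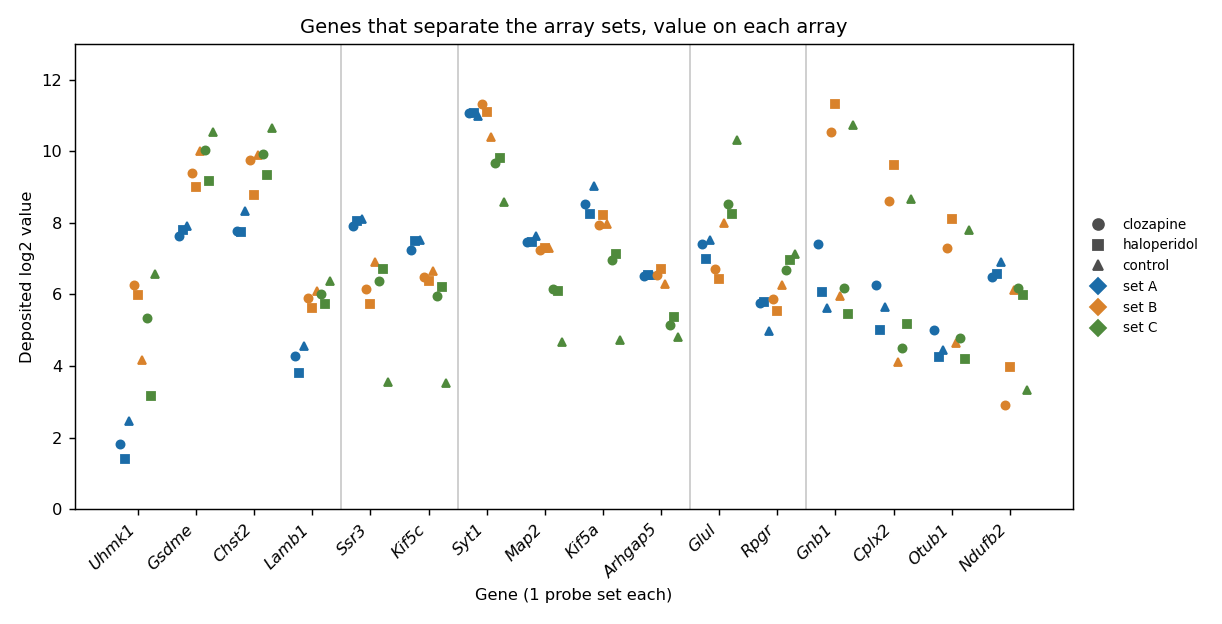
Deposited log2 value of 16 genes, 1 probe set each, on the 9 arrays; colour marks the set, shape the treatment, and grey lines separate genes low in A, high in A, low in C, high in C, and set apart in clozapine 2, haloperidol 2 and control 3. The control 3 triangle lies far from its set in Ssr3 (3.56), Kif5a (4.74) and Glul (10.31), and joins the drug arrays of B in Gnb1 (10.73).

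Probe sets for the same gene often disagreed about the sets. Of 59 genes called higher in A than B that had several tested probe sets, 0 had every probe set called, and 55 had exactly 1, which was the dimmest in 38 cases. For genes lower in A the single probe set was the dimmest in 8 of 19 cases against B and 16 of 67 against C. For genes higher in A than C, 5 of 108 had every probe set called: Camk2a, Dtna, Gria1, Pitpnb and Trpc1. The 19 genes lower in A than B and the 68 lower in A than C gave 0 and 0. In B against C the counts were 0 of 15 and 0 of 13. Gnao1, Matr3 and Prkce were called on both sides in A minus C. For Prkce, a protein kinase C, 1 probe set was at 8.10, 8.18 and 8.09 in A and 7.39, 7.30 and 6.62 in C, and the other at 10.41, 10.35 and 10.18 in A and 11, 10.97 and 11.38 in C. Probe sets assigned to 1 gene thus stepped in opposite directions between the same arrays. Where the probes lie, and whether they match other transcripts, was not examined here. Some probe set names carry a special suffix letter (f, g, i, r or s), among them those given for Lamb1, Aopep, Polr2c, Sema4b, Shox2 and Ndufb2. Without such probe sets 5988 were left. Of these, 118 were higher and 20 lower in A than B, and 191 higher and 106 lower in A than C. Of 72 named results 49 could then be followed, and all 49 kept their step.

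Among the genes with all probe sets in step, Camk2a, the calmodulin kinase of excitatory synapses, was at 9.42, 8.36 and 8.99 in A, at 7.45, 8.01 and 6.68 in B, and at 7.44, 7.48 and 3.87 in C. Its second probe set ran parallel, at 8.63, 7.33 and 8.29, at 6.80, 7.5 and 5.95, and at 6.38, 6.73 and 2.96. Every A array lay above every other array in the first, haloperidol 3 of A at 7.33 lay below haloperidol 2 of B at 7.5 in the second, and control 3 was lowest in both. Gria1, an AMPA receptor subunit, was at 9.35, 9.28 and 8.95 in A, at 8.60, 8.61 and 8.60 in B, and at 8.11, 8.41 and 7.12 in C. Trpc1, a cation channel, was at 6.57, 6.94 and 6.86 in A, at 5.94, 5.69 and 6.37 in B, and at 6, 6.07 and 3.99 in C.

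Lists of genes for abundant RNA classes were higher in set A by small amounts in the deposited values. In a list, each gene was represented by its brightest probe set, and the median difference over the list was set beside that over all probe sets, which lay between -0.022 and 0.046 in every pair and treatment. That baseline mixes dim and bright probe sets. In A minus B the medians were -0.138, -0.104 and -0.035 in the 1864 dimmest. They were 0.054, 0.060 and 0.068 in the 1863 brightest and 0.081, 0.110 and 0.061 in the 1863 next below. The part of brightness in the list medians was not tested. Cytosolic ribosomal protein genes (24 tested of 36) lay above C by medians of 0.267 in clozapine, 0.393 in haloperidol and 0.249 in control, and above B by 0.186, 0.202 and 0.133. In A minus C, 14 of the 24 were higher in every treatment and 3 lower, where 31.7% and 30.8% of all probe sets were. The step was passed upward by 2 and downward by 0, against 3.27% and 2.29% of all probe sets. Rplp0, of the ribosomal stalk, was at 11.13, 11.08 and 11.26 in A, at 10.72, 10.95 and 11 in B, and at 10.60, 10.41 and 10.32 in C, so that the sets followed in order without overlap. Rps3, of the small subunit, was at 11.12, 11.20 and 11.14 in A and 10.57 to 10.60 in C.

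Respiratory chain and ATP synthase genes (63 tested of 72) lay above B in A by 0.2, 0.160 and 0.167 and above C by 0.118, 0.116 and 0.149. Of the 63, 38 were higher in A than B in every treatment and 9 lower, against 28.8% and 26.1% of all probe sets. The step was passed upward by 3 and downward by 1, against 2% and 0.483%. In A minus C it was passed upward by 0 and downward by 1, against 3.27% and 2.29%. Ndufa6, of complex I, was at 9.19, 9.42 and 9.23 in A and 8.06, 8.38 and 8.59 in B, whereas Uqcrc2, of complex III, went down in A, at 10.03, 10.12 and 10.46 against 11.05, 10.75 and 11.17. Proteasome subunit genes (35 tested of 37) lay above B by 0.118, 0.176 and 0.175, with 2 passing upward and 0 downward. Psmb2, of the core, was at 6.99, 7.21 and 7.09 in A and 5.71, 6.34 and 6.21 in B. In A minus C, 2 of the 35 passed upward and 3 downward, against 3.27% and 2.29% of all probe sets. Psmd11, another subunit, was lower in A than in C, at 8.36, 8.21 and 8.45 against 9.66, 9.45 and 9.94. A second Psmd11 probe set did not show this step, at 8.01 to 8.29 in A and 7.96 to 8.37 in C. With each array centred on its median, the means of the 3 medians were 0.196 for ribosomal genes in A minus C, 0.064 for respiratory genes in A minus B, no longer on 1 side in every treatment, and 0.044 for proteasome genes in A minus B. In A minus C that centring gave 0.021 for respiratory genes and -0.031 for proteasome genes, neither on 1 side in every treatment.

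Genes of synaptic vesicles and exocytosis (20 tested) had lower medians in C than in A and B. The median lay above C in A by 0.591, 0.099 and 0.856 and in B by 0.179, 0.090 and 0.590. In A minus C, 5 of the 20 passed the step upward and 0 downward, against 3.27% and 2.29% of all probe sets. In B minus C, 4 passed upward and 0 downward, against 0.403% and 0.59%. A minus B was smaller, at 0.071, 0.010 and 0.305, and was no longer on 1 side in every treatment with centring or quantile normalization. The members with the largest steps were Syt1, Syngr1 and Nsf, given above. Snap25, a core fusion protein, did not follow, at 12.82 to 13.26 over all arrays. With the controls exchanged the B minus C mean was -0.107 in place of 0.286. In this pair the exchange only reverses the sign of the control median. Genes of cortical and hippocampal excitatory neurons (19 tested) lay above C in A by 0.139, 0.258 and 0.483, with 3 passing upward, Camk2a among them, and 1 downward. Tbr1, a transcription factor of deep cortical neurons, was the one below, at 10.41, 10.29 and 10.56 in A, 10.51, 9.97 and 10.94 in B, and 11.22, 11.22 and 11.12 in C.

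**Figure D4:**
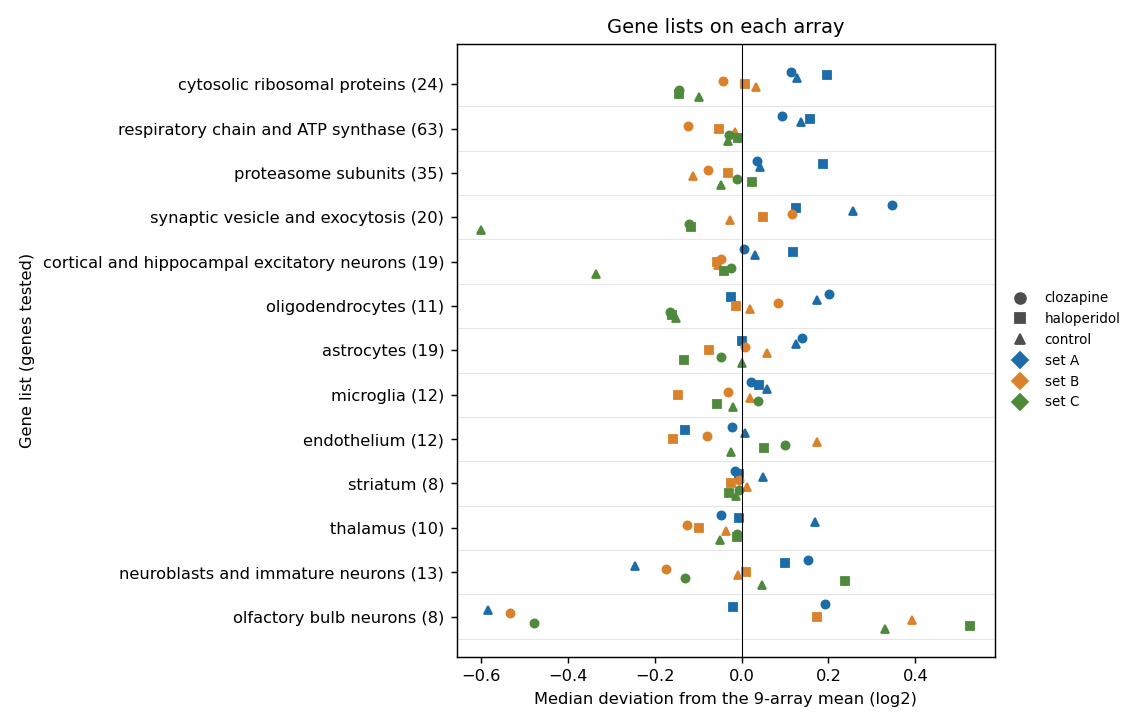
For each gene list, the median over its tested genes of the deviation from the 9-array mean, on each array, in log2 units; colour marks the set and shape the treatment. The 3 arrays of A lie to the right for ribosomal (0.113 to 0.197), respiratory and proteasome genes, whereas control 1 (-0.584), clozapine 2 and clozapine 3 lie to the left for olfactory bulb genes, across the sets.

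Olfactory bulb and neuroblast genes varied within the sets. The bulb list (8 tested) stood at 0.192 in clozapine 1, -0.019 in haloperidol 3 and -0.584 in control 1 of set A, at -0.532, 0.174 and 0.393 in set B, and at -0.478, 0.526 and 0.331 in set C. Low and high arrays thus occurred in each set, and 0 of the 8 passed the step in any pair. Over all probe sets 0.403% to 3.27% passed it per pair and direction, so 0 of 8 says little. In B minus C the bulb medians were -0.068, -0.238 and -0.014. Eomes, a transcription factor of mitral and tufted cells, was at 5.17, 4.92 and 3.76 in A, at 3.79, 5.17 and 5.56 in B, and at 4.06, 5.78 and 5.36 in C. Th, the dopamine-synthesising enzyme, present in bulb neurons, was low on the same arrays: 3.93 in control 1, 4.54 in clozapine 2 and 4.40 in clozapine 3, against 4.98 to 5.86. Of 13 neuroblast genes tested, 5 were lower in every treatment in B minus C and 3 higher, against 17% and 23.3% of all probe sets. The neuroblast genes had medians of -0.072, -0.457 and -0.082 in that pair and were mixed in the other pairs. Among them, Sox11, a factor of young neurons, did separate C, at 6.45, 6.43 and 6.65 against 5.59 to 5.95, and Dcx, of migrating neurons, did not, at 5.31 to 6.52 in C and 5.23 to 6.51 elsewhere.

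Other regional lists had few members past the step, and counts of 0 in lists this short are near the shares over all probe sets. Those shares were 0.403% to 3.27% per pair and direction. The striatal list (8 tested) stayed between -0.029 and 0.049 on all arrays, with 0 genes past the step. Hypothalamic genes (8 tested) had medians of 0.017, 0.049 and 0.009 in A minus C, a direction that turned with each array centred on its median. Thalamic genes (10 tested) lay above C in A by 0.076, 0.182 and 0.194, and 2 of the 10 passed the step upward in A minus B, against 2% of all probe sets. These were Rora, a nuclear receptor also in the cerebellar list, at 7.89, 8.05 and 8.06 in A and 7.32, 7.43 and 7.51 in B, and Rgs16, a regulator of G protein signalling, at 5.79, 5.80 and 6.16 in A and 5.23, 5.07 and 5.65 in B. Zic1, a zinc finger factor, lay on the other side at 9.64, 9.54 and 9.33 in A, 9.66, 9.79 and 9.84 in B and 10.16, 10.23 and 10.50 in C. Midbrain and brainstem genes (6 tested) had medians of -0.182, -0.307 and -0.098 in A minus B, with 0 past the step, and Nefh, a neurofilament, was at 8.27, 8.33 and 8.39 in A and 8.46, 8.50 and 8.52 in B. Choroid plexus genes (8 tested) lay above C in A by 0.057, 0.303 and 0.303, and Ttr, its main secreted protein, was at 8.96, 9.61 and 9.46 in A and 8.67 to 9.33 elsewhere. Kl, which encodes klotho, passed the step between B and C, at 6.24, 5.64 and 6.48 in B and 7.08, 6.38 and 7.04 in C.

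Glial and vascular lists moved little, and their members moved both ways. Oligodendrocyte genes (11 tested) lay lower in C than in B by 0.218, 0.124 and 0.199. Of the 11, 0 passed the step in B minus C, against 0.403% of all probe sets upward and 0.59% downward. With the controls exchanged the mean of the 3 medians was 0.048 in place of 0.181, again only through the reversed control median. Ugt8a, an enzyme of myelin lipids, was at 6.03, 5.95 and 6.07 in A, 5.73, 5.24 and 4.95 in B and 4.93, 5.16 and 4.46 in C, while Mbp, myelin basic protein, ranged only from 12.20 to 12.78. Astrocyte genes (19 tested) had medians of 0.2, 0.064 and 0.142 in A minus C, a side that was lost with each array centred on its median. Of the 19, 11 were higher in every treatment and 4 lower, against 31.7% and 30.8% of all probe sets. The step was passed upward by 0 and downward by 2, against 3.27% and 2.29%. The 2 were Glul, described above, and Gja1, the astrocyte gap junction protein. Gja1 was at 11.42, 11.27 and 11.49 in A and 12.02, 11.80 and 12.11 in C. Atp1b2, a glial sodium pump subunit, was at 9.15, 8.55 and 9.14 in A, 7.99, 7.56 and 8.13 in B and 7.80, 8.27 and 5.18 in C. Apoe, a lipid carrier, was at 11.05, 11.17 and 10.72 in C against 11.38 to 11.77 in A and B.

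Microglial genes (12 tested) had medians from 0.010 to 0.193 in A against each other set. C1qc, a complement chain, was at 7.2, 6.90 and 6.99 in A and 6.12 to 6.79 elsewhere, and Ly86, a partner of a toll-like receptor, ran the other way, at 5.37, 5.76 and 5.93 in A and 6.20, 6.74 and 7.08 in C. Endothelial genes (12 tested) had 2 past the step downward in A minus C, against 2.29% of all probe sets. These were Itm2a, at 8.86, 8.86 and 8.76 in A and 9.62, 9.82 and 9.81 in C, and Cdh5, the junction cadherin of vessels, at 5.85, 5.69 and 5.16 in A and 6.75, 6.44 and 6.68 in C. Cldn5, a tight junction protein, was at 6.81, 6.68 and 7.24 in A, 5.67, 6.27 and 7.29 in B and 6, 6.35 and 6.32 in C. Control 2 was the highest array for Cldn5, so the sets overlapped.

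Activity and clock genes separated set C in single members. Fos, an immediate early gene induced by neuronal activity, was at 9.26, 9.10 and 8.98 in A, at 9.08, 9.14 and 9.14 in B, and at 9.83, 9.94 and 9.55 in C. Every C array lay above every other array, while Egr1, induced in like manner, was at 10.23 to 10.50 over all 9. Of 20 immediate early genes, 1 passed the step downward in A minus C and 1 upward, against 2.29% and 3.27% of all probe sets. The one upward was Nr4a2, an orphan receptor, at 6.92, 6.89 and 6.09 in A and 5.87, 6.02 and 5.33 in C.

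The paired clock repressors Cry1 and Cry2 ran in opposite directions. Cry1 was at 6.13, 6.37 and 6.12 in A, at 5.63, 5.77 and 6.42 in B, and at 6.94, 7.10 and 6.71 in C. Cry2 was at 6.14, 6.35 and 6.30 in A, at 5.81, 5.81 and 5.73 in B, and at 5.5, 5.66 and 4.95 in C. Set C was highest for Cry1 and lowest for Cry2, without overlap in either. Clock genes (11 tested) had medians of 0.091, 0.119 and 0.123 in A minus C, a side that was lost with each array centred on its median. In that pair 1 passed the step upward, Cry2, and 1 downward, Cry1, against 3.27% and 2.29% of all probe sets. Dbp, an output gene of the clock, split by treatment in place of set, with 6.39 to 6.79 in the 3 controls and 7.21 to 7.5 in the drug arrays. Glucocorticoid-responsive genes (12 tested) had medians of -0.146, -0.089 and -0.323 in B minus C. In that pair 5 of the 12 were lower in every treatment and 0 higher, against 17% and 23.3% of all probe sets. The step was passed by 0, against 0.59% downward and 0.403% upward. In A minus C the medians were -0.247, -0.013 and -0.165. Zbtb16, a transcriptional repressor in this list, was at 9.87, 9.39 and 9.66 in C against 8.41 to 9.21. Mt1, a metallothionein, was highest in A, at 10.73, 10.53 and 10.83 against 9.91 to 10.35. Heat shock and chaperone genes (18 tested) had medians of -0.076, -0.126 and -0.163 in B minus C, with 0 past the step.

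Array controls also separated the sets. The bacterial and phage transcripts added before hybridisation (BioB, BioC, BioD and Cre, 9 probe sets) averaged 9.12, 8.8 and 8.91 in A, 9.83, 9.76 and 9.34 in B, and 9.58, 9.25 and 9.83 in C. Set A was lowest without overlap, and clozapine 2, haloperidol 2 and control 3 were the 3 highest arrays. The difference between the 3′ and 5′ probe sets of Actb was 1.57, 1.42 and 1.48 in A, 1.81, 1.5 and 2.34 in B, and 1.96, 2.17 and 2.72 in C. For Gapdh it was 0.22, 0.21 and 0.29 in A, 0.45, 0.24 and 0.57 in B, and 0.31, 0.43 and 0.74 in C. The control arrays of B and C had the largest values of both, and A was low, with haloperidol 2 between A arrays.

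**Figure D5:**
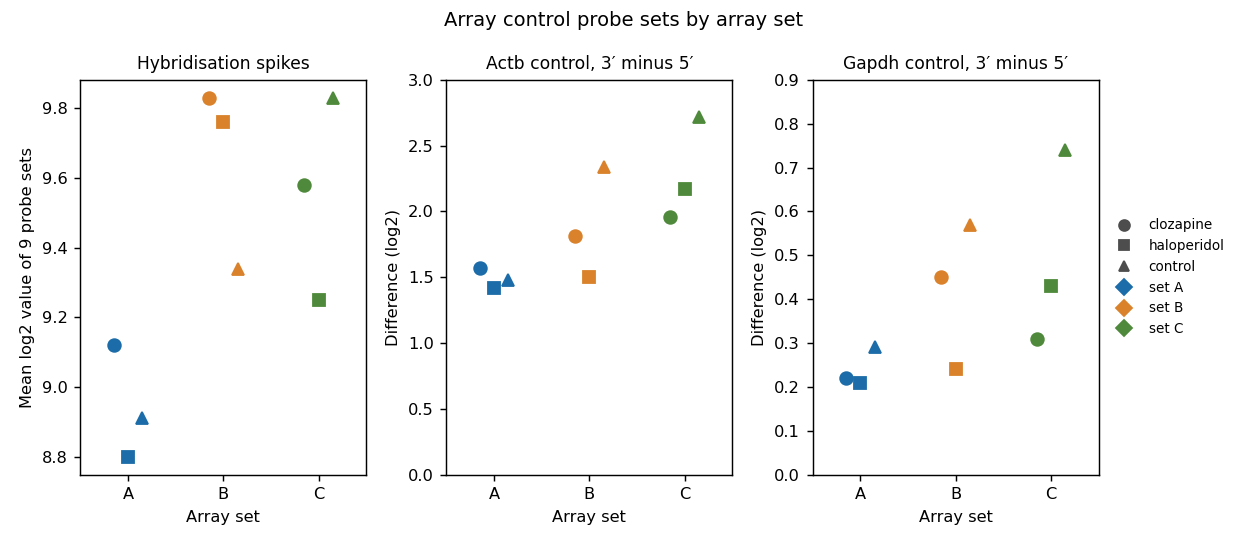
Left, mean log2 value of the 9 hybridisation control probe sets; middle and right, the 3′ minus 5′ difference of the Actb and Gapdh control probe sets, in log2 units, for the 9 arrays by set, with shape marking the treatment. Set A lies lowest in the left panel (8.8 to 9.12), and control 3 is highest in the Actb (2.72) and Gapdh (0.74) panels.

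The 3′ probe set of the transferrin receptor control was at 5.54, 5.55 and 5.22 in A, 4.84, 4.56 and 4.65 in B, and 4.24, 4.42 and 4.28 in C. Another probe set of its gene, Tfrc, was at 6.05, 6.16 and 5.54 in A, 5.27, 4.49 and 5.41 in B, and 4.79, 4.96 and 3.45 in C, so A was highest in both. A brighter Tfrc probe set did not separate A from B, at 6.24 to 6.48 and 6.23 to 6.32, with C at 5.66 to 6.03. The 5′ and middle probe sets of the control, at 2.95 to 3.18 and 3.52 to 3.71, did not separate the sets. Probe sets for the opposite strand of Gapdh were high in clozapine 2, haloperidol 2 and control 3. The middle one was at 7.26, 7.73 and 6.84 in those arrays and 4.86 to 5.51 in the other 6, and the 3′ one at 6.98, 7.12 and 6.74 against 4.35 to 5.42. The 3′ opposite-strand probe set of Actb was at 6.59, 7 and 5.85 against 4.15 to 4.77. These are the arrays in which Gnb1 and Cplx2 were high. The 18S ribosomal RNA controls were high in haloperidol 2 of set B alone, at 10.88, 9.35 and 8.97 in the 3′, 5′ and middle probe sets, against 2.23 to 3.69 on the other 8 arrays. The part of spike level, 3′ to 5′ difference, opposite-strand signal and ribosomal RNA in any gene's step was not tested.

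Genes of pituitary and blood were high on single arrays and did not mark a set. Prl, the pituitary hormone prolactin, was at 11.76 in haloperidol 3 of set A and at 3.38 to 3.84 on the other 8 arrays. S100a8 and S100a9, calcium-binding proteins of neutrophils, were at 7.57 and 7.07 in clozapine 1 of set A, and at 3.10 to 3.79 and 3.37 to 3.77 on the others. Hba-a1, of haemoglobin, was also highest in clozapine 1, at 10.56 against 8.58 to 10.17. These arrays lay in set A with control 1, which had neither signal, at 3.59 for Prl and 3.30 for S100a8.

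Taking the sets into account brought no treatment call. Limma's test without a block called 0 of 7453 probe sets (0%) at an adjusted p of 0.05 for clozapine against control, haloperidol against control and clozapine against haloperidol (0% each), with 70, 680 and 271 at an unadjusted p under 0.05. With the array set as a block the counts were again 0, 0 and 0, with 294, 1342 and 781 at an unadjusted p under 0.05. The lowest adjusted p in limma with the block was 1, 0.134 and 0.453. The median residual SD was 0.196 log2 units without a block, 0.142 with the set block and 0.193 with the replicate number as a block. The set block was chosen on the same values by likeness of arrays, so its lower spread was built in. Its p-values are not independent of the data either.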

How the data were processed

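RNA from 1 hemisphere of each of 9 mice was measured on Affymetrix U74Av2 arrays. The authors deposited 1 table of log2 values, and the submitters' processing notes name GCRMA as the tool. This procedure subtracts a background estimated from probe base composition, normalizes the arrays and summarises the probes of a probe set, and its version is not given in the sources used here. Such summarising can pull dim probe sets toward a floor and can widen differences near it.

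The sets, gene lists and genes were chosen with earlier results of these data known. Of 12488 probe sets, 66 array controls were set aside, and the 7453 of the remaining 12422 with an average above the 40th percentile (3.448) were compared. Gene symbols came from the platform annotation given with the data: 10833 probe sets had 1 symbol, of which 10817 were found in the RefSeq gene table of assembly GRCm38.p6, 396 had several and 1193 had none. Differences between sets were taken within each treatment and counted with a step of 0.5 log2 units in all 3. Sums of squares were split over treatment, set and rest. Treatments were compared with limma 3.58.1 in R 4.3.3 with Benjamini-Hochberg adjustment at 0.05, without and with the set as a block, and the other steps used Python 3.11.15. The counting and the limma step were tested on simulated data.

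The text names, for each pair of sets and direction, genes among the 12 with the largest smallest difference. It also names some, not all, of the 3 genes with the largest smallest difference in the lists described. Further genes that mark such a list, control probe sets, and other probe sets of a named gene where they differ are given too. Genes setting 1 set apart from both others, genes called on every or on both sides and those of the exchanged controls were added after their values were seen. Lists with fewer than 5 tested genes, for pituitary, oligodendrocyte precursors and ependyma, were not summarised. Array data carry no counts, so the number of arrays limits the precision. Alternatives were the filter, the step, the scaling, low values raised to the filter value, probe sets with a special suffix left out, each array left out, and a block on the replicate number. Leaving out the controls and exchanging control 2 and control 3 between sets B and C were added after seeing the data.

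The replicate numbers did not pair the samples: deviations from the treatment means correlated between -0.597 and 0.697 for arrays of the same number. For arrays of the same set they correlated between -0.227 and 0.697. The negative values there were those of control 2, at -0.227 with clozapine 2 and -0.209 with haloperidol 2.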

Additional observations from a re-analysis of the deposited data

Results flagged for a closer look

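Among 4969 probe sets below the filter, which no comparison used, those with a single gene symbol and a drug array as the highest were searched. Of these, 5 lay above the highest control by at least 3 log2 units. All were in haloperidol 3 of set A and for pituitary hormone genes. Gh, growth hormone, was at 12.57 there and at most 1.28 on the other arrays, with 1.14 as the highest control. Pomc, the precursor of corticotropin, was at 10.31 against at most 2.30. Cga, the alpha chain shared by glycoprotein hormones, was at 7.89 and 7.63 in its 2 probe sets, against at most 1.92 and 2.54. Tshb, the thyrotropin beta chain, was at 6.14 against at most 2.96. The other arrays of set A, clozapine 1 and control 1, did not share these values, and their part in the set differences was not tested. Groups of 3 arrays are too small for a check for single outlying arrays.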

How the results depend on the processing

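Counts of probe sets that separate 2 sets moved with the step and with the controls. A against B gave 185 in all, 564 with a step of 0.3, 22 with a step of 1, 491 with the control arrays left out and 359 with control 2 and control 3 exchanged. A against C gave 415, then 1155, 41 and 256 with the 2 controls exchanged. B against C gave 74, then 312, 4 and 407 with the control arrays left out. Leaving out an array removes its treatment from the comparison, so fewer differences have to pass: the ranges were 285 to 491, 531 to 755 and 143 to 407. The highest B against C count came without control 2 or control 3, and the highest A against C count without haloperidol 1 or haloperidol 3. The share of the sum of squares taken by the set was 50.9%, 72.9% with the control arrays left out and 52.6% with control 2 and control 3 exchanged. With 1 array left out it was 41.1% to 61.7%, lowest without control 1 and highest without control 2. Of 78 list comparisons, 40 had medians on 1 side in every treatment, and of these 20 stayed so with each array centred on its median and 28 with quantile normalization. With that centring, 2 medians turned: immediate early genes in A minus B went from 0.078 to -0.034 and hypothalamic genes in A minus C from 0.025 to -0.082. The limma fit with the replicate block called 0, 0 and 0 probe sets between treatments, with 60, 665 and 333 at an unadjusted p under 0.05. Signal close to background limits the dim probe sets named above.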
